A study of Oryzias latipes with 10 samples.

Results

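The genes described here encode lysosomal enzymes and membrane proteins and the vacuolar proton pump that acidifies the lysosome. They were chosen by symbol, from cathepsins (ctsa to ctsz), pump subunits (atp6v0, atp6v1, atp6ap) and named lysosomal hydrolases and transporters. Of 25795 genes in the deposited table, 42 had such a symbol. With at least 1 RPM (reads per 1000000 reads) in at least 5 of 10 libraries, 36 were kept of 14984 genes that passed this filter. The rule matches the start of a symbol, so it also took gba2, glb1l2 and npc1l1, relatives that are not the lysosomal proteins the rule was built for, and 33 members are the intended genes. The RNA came from the liver of medaka, Oryzias latipes, a rice-paddy fish used in the laboratory, in 5 libraries of fish with a phod1 knockout (KO; the labels also write pd1) and 5 libraries of wild-type fish (WT). All fish were held in long days and sampled at noon, and the labels give neither strain, knockout allele, sex nor age. The study set out to examine what the phod1 knockout does in liver. No gene in the name table is called phod1 or pd1, so its own transcript was not analysed here. The labels do not tie the libraries to separate fish, and a p-value here reflects library-to-library variation alone, part of which may be technical.

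Lysosomes break down proteins, sugars, lipids and nucleic acids delivered by endocytosis and autophagy. Their enzymes work best in acid, which the proton pump maintains by using ATP in its cytosolic V1 sector to drive protons through its membrane-bound V0 sector. In vertebrates the liver uses lysosomes to degrade plasma proteins taken up from blood, to release cholesterol from lipoproteins and to recycle cell contents between meals. Gene roles below are those known in mammals.

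Libraries were made with Lasy-Seq, which sequences the 3' ends of transcripts, so RPM were not divided by gene length. The libraries held 4542721 to 10112313 reads in KO and 5422342 to 9803543 reads in WT. The library KO2 stood apart from the other KO libraries, and WT3 from the other WT libraries, in the share of reads taken by the egg protein genes vit-6, ol-vit1 and 1-sf. This share was 6.95% in KO2, against 0.428% to 0.593% in the other KO libraries. It was 2.77% in WT3, against 10.4% to 14.0% in the other WT libraries. Of the 2 tested markers of intestine and kidney, fabp2 was highest in WT5, at 97.0 RPM, while lrp2 was lowest there, at 38.7 RPM. The 1 tested marker of pancreas, cpb1, was also highest in WT5, at 208 RPM. Leaving out WT5 gave 0 members called (limma, adjusted p under 0.05) and changed the sign of 2 of 36 differences. The part of such RNA in the results was not tested. In whole liver, fewer cells of a type and less RNA per cell cannot be told apart.

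None of the 36 tested members was higher or lower in KO in limma on log2(RPM + 1) at an adjusted p under 0.05. Of all genes tested, 1.17% (175) were higher and 1.68% (252) lower, a split that became 313 higher and 132 lower under TMM scaling. At an unadjusted p under 0.05 there were 3 members, each at a higher mean level in KO. This is 8.33% of the members, against 16.4% of all tested genes, whose split by direction at this p is not given here. Every member's KO and WT ranges overlapped, while 3.62% of all genes had groups that did not overlap. A count test with edgeR on reads recovered from 9 libraries, all but KO5, called 0 members, against 1.19% of all genes. KO5 was the highest KO library for 15 of 36 members (41.7%, against 19.7% of all genes), so these counts rest on other samples than limma. At an unadjusted edgeR p under 0.05 there were 3 of 36 members, against 1800 of all 14984 genes. DESeq2 on the same reads called 0 of the 24 members to which it gave an adjusted p. Of all 14984 genes it called 489 (3.26%), a share that also counts genes without an adjusted p. At an unadjusted DESeq2 p under 0.05 there were 4 of 36 members, against 1913 of all 14984 genes.

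The intervals of the differences bound how large a change could have been on the scale of log2(RPM + 1), with RPM as deposited. The 1 that is added makes differences of genes at low RPM smaller, and rescaling moves them all, as ctso from -0.03 to 0.18 with TMM. The 95% interval, not adjusted for the number of genes, lay within 1 log2 unit of 0 (less than a doubling or halving of RPM + 1) for 25 of 36 members, or 69.4%, against 44.2% of all genes. It lay within 0.5 log2 units for 2 members, npc2 and ctso, and the gene model of ctso overlaps that of another gene, tdo2. Among the 21 members with a mean of at least 10 RPM, 18 had an interval within 1 log2 unit, and among the 15 lower ones 7 did. The members' differences, KO minus WT, had a median of -0.04 and an SD of 0.37, and 20 of 36 lay below 0. Over all genes the median was -0.19, the SD 0.52 and the share below 0 was 67.3%. With TMM scaling, which sets the median of all genes to -0.01, the members' median was 0.16 and 13 of 36 lay below 0. The sign of the members' median therefore depends on the scaling. On both scales this median lay above that of all genes, a gap that was given no test. Under TMM the differences of 7 members, atp6v1a, ctso, hexb, asah1, npc1l1, npc2 and ppt1, turned positive.

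**Figure D1:**
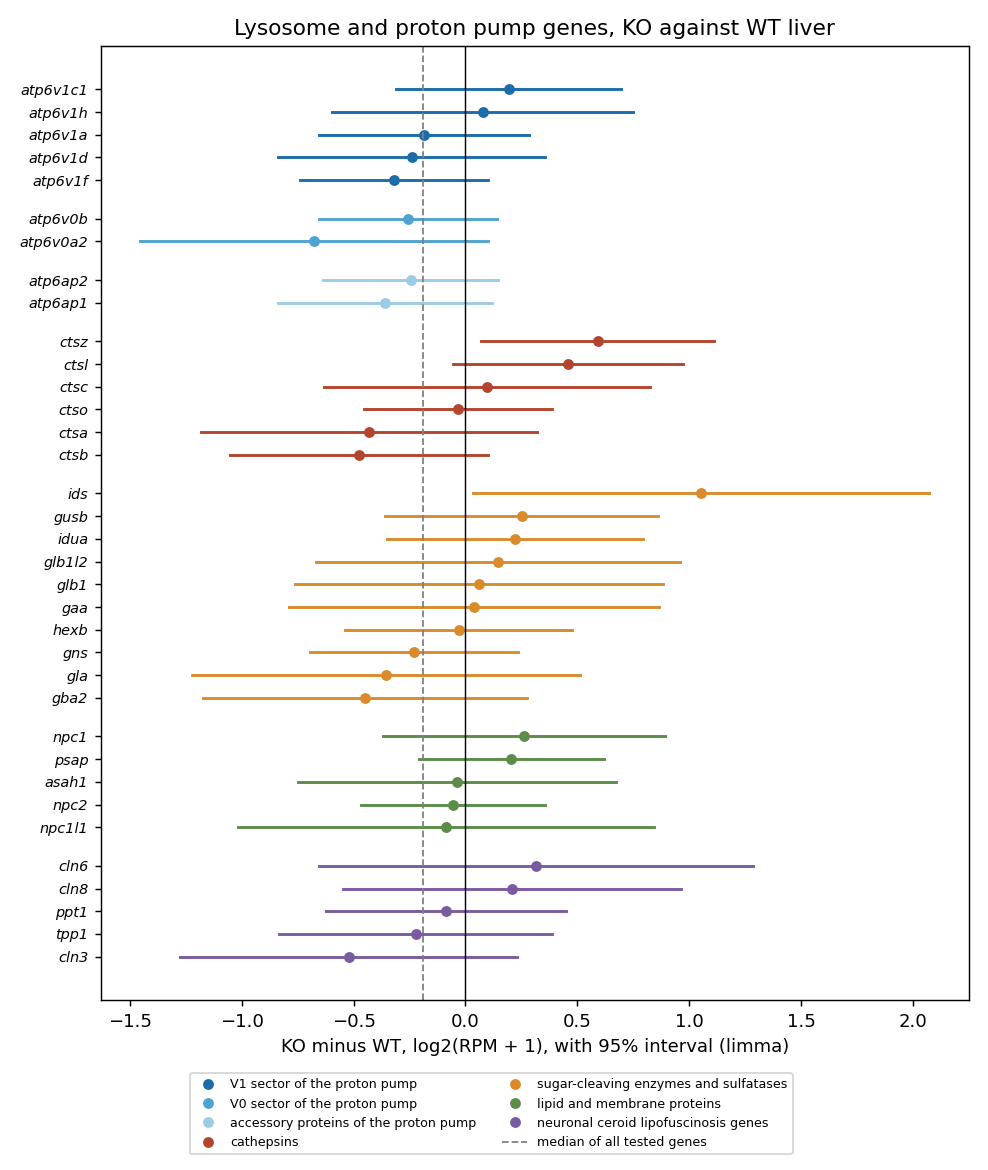
Difference between KO and WT liver for 35 members on the log2(RPM + 1) scale (x axis), grouped by role; points are limma estimates, lines their unadjusted 95% intervals, and the dashed line marks the median of all tested genes, -0.19. The intervals of ctsz and ids lie above 0, and those of the other genes plotted include 0.

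The proton pump was covered by 5 genes of the V1 sector, 2 of the V0 sector and the genes of its accessory proteins atp6ap1 and atp6ap2. Of these 9 genes, 7 had a lower mean log2 level in KO, with a median difference of -0.24, close to the -0.19 of all genes. With TMM scaling the median was -0.04 and 6 of 9 lay below 0. No pump gene passed in limma, edgeR or DESeq2. The smallest unadjusted p of a pump gene was that of atp6v0a2, at 0.0843 in limma, 0.0512 in edgeR and 0.0450 in DESeq2. Both count tests left out KO5, the KO library with the most RNA of this gene. Other subunits, such as the main ring subunit of V0, had no matching symbol and were not analysed here.

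The sum over the 9 pump genes was 219.5, 262, 210.6, 194.6 and 222 RPM in KO1 to KO5, against 238, 292, 272, 267.5 and 255 RPM in WT1 to WT5. On this scale all KO libraries but KO2 lay below every WT library. Divided by TMM factors, the sums were 281, 236, 220.3, 222 and 235 in KO1 to KO5, against 216, 269, 244, 239 and 261 in WT1 to WT5. On the TMM scale every KO library lay above WT1, and KO1 was the highest of all 10. The sums are descriptions and were given no test.

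In the V1 sector, atp6v1a encodes the catalytic subunit that binds ATP. It had 18.7, 33.5, 18.7, 19.7 and 19.0 RPM in KO1 to KO5, against 23.5, 28.4, 26.9, 22.5 and 21.2 RPM in WT1 to WT5. KO2 was the highest of all 10 libraries and the other 4 KO libraries were the lowest. The difference was -0.19 ± 0.22 log2 units (SE; 95% interval -0.66 to 0.29; limma adjusted p = 0.728), and -0.34 without KO2. The sign of this difference depends on the scaling, at 0.02 with TMM, and it was 0.07 in edgeR, which also left out KO5. For atp6v1f, a small subunit of the rotating stalk, RPM averaged 43.5 ± 3.92 in KO and 55.6 ± 12.6 in WT (SD, n = 5 each), with a difference of -0.32 ± 0.20. Its KO libraries spanned 37.4 to 48.0 RPM, inside the WT span of 38.0 to 70.2 RPM but for the lowest. For atp6v1c1, whose product joins the V1 sector to V0, RPM averaged 17.5 ± 2.61 in KO and 15.4 ± 3.84 in WT, with a difference of 0.19 ± 0.24. The remaining V1 genes, the stalk subunit gene atp6v1d and the regulatory subunit gene atp6v1h, differed by -0.24 and 0.08.

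In the V0 sector, atp6v0a2 encodes one of the alternative large membrane subunits that line the proton path. It had 5.33, 8.37, 2.46, 5.61 and 13.4 RPM in KO1 to KO5, against 6.74, 20.3, 8.48, 12.1 and 8.98 RPM in WT1 to WT5. KO1, KO3 and KO4 lay below all WT libraries, while KO5 lay above all but WT2. The difference was the largest of the pump genes, at -0.68 ± 0.37 log2 units (95% interval -1.45 to 0.10; limma adjusted p = 0.382), and -0.49 with TMM. For atp6v0b, a proteolipid of the rotating ring, RPM averaged 38.8 ± 5.87 in KO and 46.3 ± 4.05 in WT, a difference of -0.26 ± 0.19 (-0.05 with TMM). KO1 to KO4, at 28.7 to 42.6 RPM, lay below the lowest WT library at 42.8 RPM, and KO5 was at 42.9 RPM.

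The accessory proteins take part in the assembly of the pump. The gene atp6ap1 had 26.8, 44.2, 40.9, 25.8 and 28.3 RPM in KO1 to KO5, against 42.7, 42.4, 54.2, 45.9 and 28.4 RPM in WT1 to WT5. KO1, KO4 and KO5 lay just under the lowest WT library, WT5, and KO2 and KO3 lay above it. Its difference was -0.36 ± 0.23 (limma adjusted p = 0.457). For atp6ap2, also known as the prorenin receptor, RPM averaged 41.6 ± 7.42 in KO and 49.1 ± 3.24 in WT, a difference of -0.24 ± 0.19. KO2 had the highest value of all 10 libraries, at 54.2 RPM, and the other KO libraries lay below all WT libraries.

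**Figure D2:**
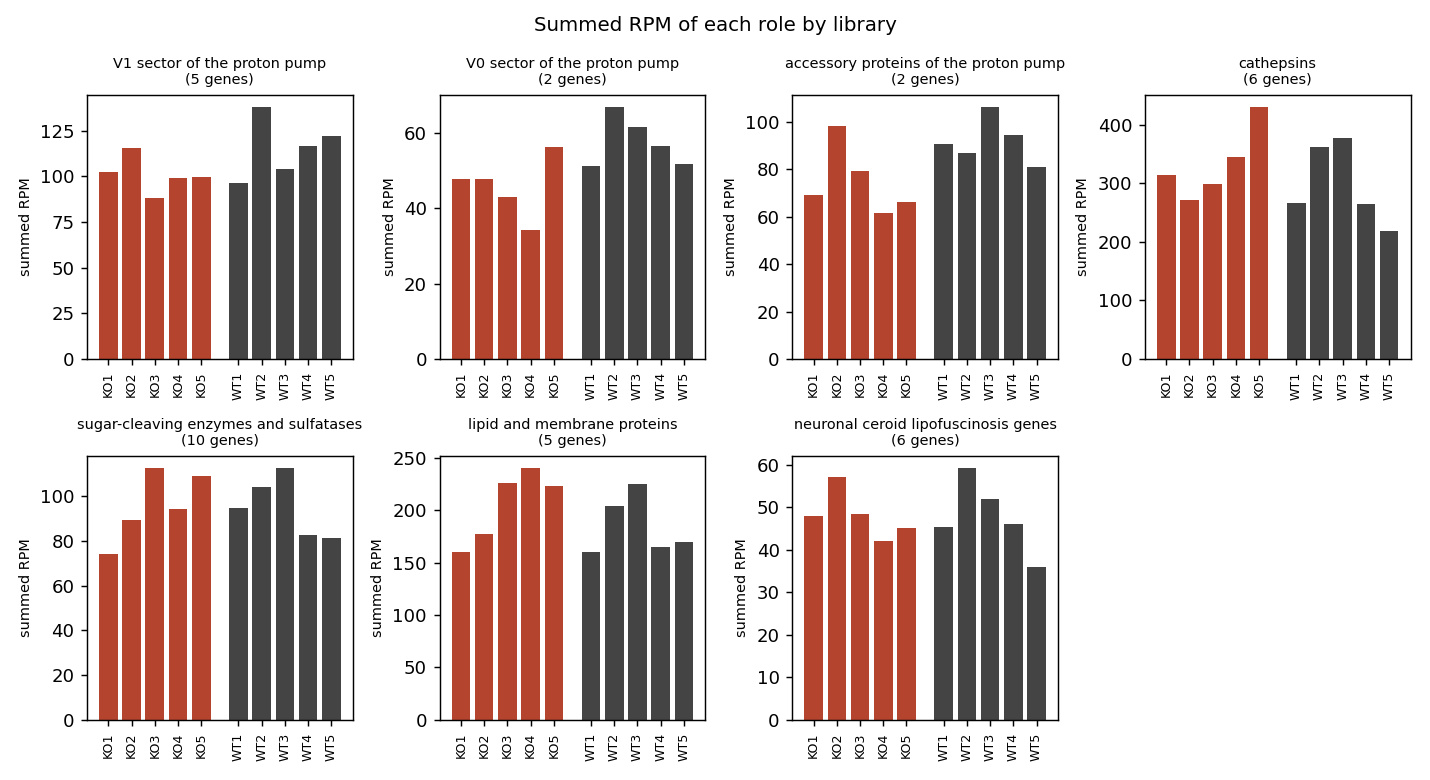
Summed RPM (y axis) of the members of each role in each library, KO left and WT right. For the accessory proteins KO2 reaches 98.4 RPM, above the other KO libraries at 61.4 to 79.2 RPM. For the cathepsins KO5 is the highest of all libraries, at 430 RPM, and WT5 the lowest, at 219 RPM.

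Cathepsins are the main proteases of the lysosome, and the 6 members did not move together. Their differences ran from -0.48 for ctsb to 0.59 for ctsz, with 3 above and 3 below 0, and 1 with an unadjusted p under 0.05. Their summed level was 332 ± 60.7 RPM in KO and 298 ± 68.4 RPM in WT (SD, n = 5 each).

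The cysteine carboxypeptidase gene ctsz had 56.6, 25.1, 45.1, 62.1 and 65.9 RPM in KO1 to KO5, against 28.0, 35.4, 39.7, 25.1 and 32.8 RPM in WT1 to WT5. All KO libraries but KO2 lay above every WT library, and KO2 lay level with the lowest, WT4. The difference was 0.59 ± 0.25 log2 units (95% interval 0.07 to 1.11), with an unadjusted limma p of 0.0289 and an adjusted p of 0.244. Without KO2 it was 0.82 with a limma adjusted p of 0.0387, so that this 1 library decided the call, in a fit in which 1.18% of all genes were higher in KO. In the other 9 fits that left out a single library it did not pass. Scaled by TMM it was 0.80 (limma adjusted p = 0.152).

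The gene of cathepsin L, ctsl, a broad endopeptidase, had 109, 95.3, 117, 157 and 165 RPM in KO1 to KO5, against 72.9, 103, 160, 93.5 and 55.9 RPM in WT1 to WT5. WT3 stood with the highest KO libraries, and KO2, the lowest of KO, lay between WT2 and WT4. The difference was 0.46 ± 0.25 (95% interval -0.05 to 0.97; limma adjusted p = 0.370). Leaving out WT3 gave 0.66 (adjusted p = 0.0906) and leaving out KO2 gave 0.56 (adjusted p = 0.244).

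For ctsb, the gene of cathepsin B, RPM averaged 16.2 ± 4.35 in KO and 23.2 ± 7.82 in WT, a difference of -0.48 ± 0.28 (limma adjusted p = 0.406). The serine carboxypeptidase gene ctsa, whose product also shields other lysosomal enzymes from breakdown, had 10.1 to 22.1 RPM in KO and 8.64 to 54.3 RPM in WT. The value of 54.3 RPM was that of WT2, and the other WT libraries reached 21.2 RPM at most. Its difference was -0.43, and -0.08 without WT2. For ctsc, which activates serine proteases of immune cells, RPM averaged 14.9 ± 5.44 in KO and 14.2 ± 7.40 in WT. For ctso the averages were 107 ± 25.7 in KO and 108 ± 18.1 in WT, with a difference of -0.03 ± 0.20 (95% interval -0.46 to 0.39), the narrowest among cathepsins. The model of ctso overlaps that of tdo2 in the name table, which averaged 102 ± 21.9 RPM in KO and 98.8 ± 16.4 in WT. Both genes had 106 RPM in KO2, and in WT5 ctso had 79.5 and tdo2 71.2 RPM. The values of ctso, also within the cathepsin sums, may therefore hold reads of tdo2, which was not tested.

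**Figure D3:**
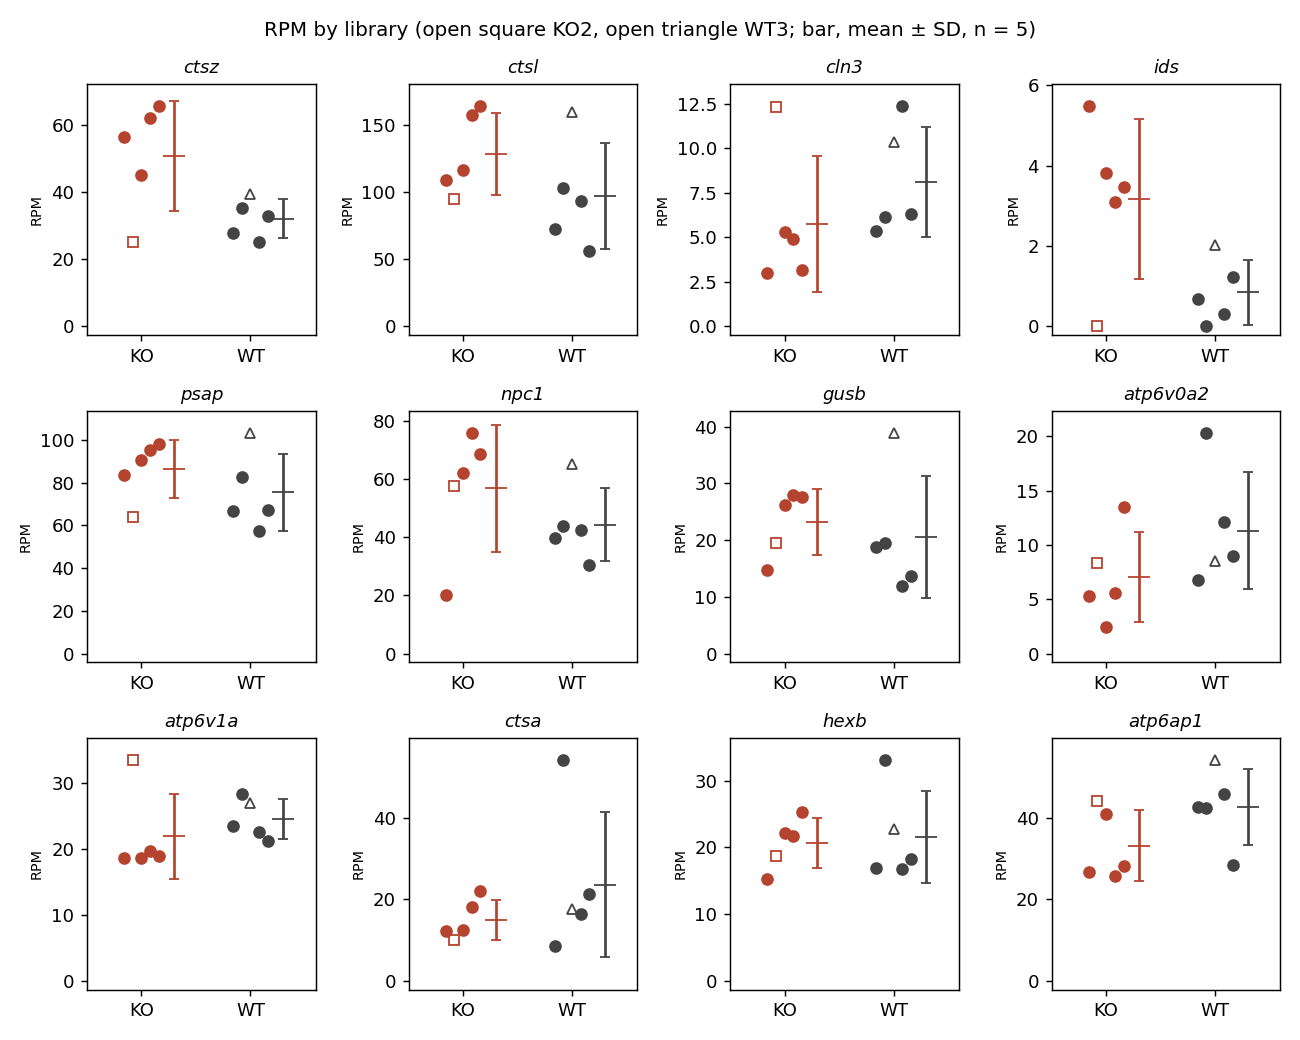
RPM in each library (y axis) of 12 members, 1 panel a gene, KO left and WT right; the bar beside the points is the mean ± SD (n = 5), the open square is KO2 and the open triangle WT3. WT3 is the highest WT library for ctsz, ctsl, ids, psap, npc1, gusb and atp6ap1, and KO2 the lowest KO library for ctsz, ctsl, ids, psap and ctsa. The panels were not chosen by a rule. Over all 36 members KO2 is the lowest KO library for 5 (13.9%), against 16.4% of all tested genes. WT3 is the highest WT library for 12 of the 36 (33.3%), against 24.5% of all tested genes.

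Among 10 enzymes that cleave sugar chains or their sulfate groups, 6 lay above and 4 below 0, with a median difference of 0.05. Their summed level was 95.9 ± 15.6 RPM in KO and 95.2 ± 13.5 RPM in WT (SD, n = 5 each). The largest difference of any member was that of ids, the gene of iduronate 2-sulfatase, which removes sulfate from heparan and dermatan sulfate. It had 5.50, 0, 3.81, 3.11 and 3.46 RPM in KO1 to KO5, against 0.691, 0, 2.03, 0.302 and 1.22 RPM in WT1 to WT5. All KO libraries but KO2 lay above every WT library, and KO2 and WT2 held no read of it.

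These values rest on few reads: 33, 0, 31 and 26 reads in KO1 to KO4, against 4, 0, 11, 2 and 12 reads in WT1 to WT5. The difference was 1.05 ± 0.49 log2 units (95% interval 0.04 to 2.07), with an unadjusted limma p of 0.0432 and an adjusted p of 0.290. Without KO2 it was 1.51 (limma adjusted p = 0.0518). The gene model of ids overlaps those of dcps and LOC101157306 in the name table. RPM of dcps averaged 8.00 ± 3.13 in KO and 7.48 ± 1.44 in WT, and RPM of LOC101157306 averaged 8.17 ± 2.76 in KO and 7.23 ± 1.71 in WT.

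The beta-glucuronidase gene gusb had 14.8, 19.6, 26.2, 28.0 and 27.6 RPM in KO1 to KO5, against 18.8, 19.4, 38.9, 11.9 and 13.7 RPM in WT1 to WT5. WT3 was the highest of all libraries, and without it the difference was 0.50 in place of 0.25 ± 0.29. Other genes of glycosaminoglycan or glycolipid breakdown did not pass the test either. The sulfatase gene gns averaged 19.5 ± 3.58 RPM in KO and 23.0 ± 4.14 in WT, and its model overlaps those of LOC101166676 and LOC111946972. For hexb, a hexosaminidase subunit gene whose model overlaps that of gfm2, the averages were 20.6 ± 3.78 RPM in KO and 21.5 ± 6.88 in WT. For idua, the iduronidase gene, they were 12.0 ± 4.12 RPM in KO and 9.94 ± 1.96 in WT, a difference of 0.22 ± 0.27 (0.42 with TMM).

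The remaining sugar-cleaving members stood below 10 RPM. The alpha-glucosidase gene gaa, which degrades glycogen, averaged 2.23 ± 1.13 RPM in KO and 2.14 ± 1.13 in WT. The alpha- and beta-galactosidase genes gla and glb1 differed by -0.36 ± 0.41 and 0.06 ± 0.39. Of the relatives taken in by the symbol rule, gba2, a glucosylceramidase outside the lysosome, differed by -0.45 ± 0.35 and glb1l2 by 0.15 ± 0.39.

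Of the 5 members that handle lipids or sit in the membrane, 2 lay above and 3 below 0, none passed the test, and all 5 lay above 0 with TMM scaling. The NPC proteins pass cholesterol out of the lysosome, NPC2 in the lumen and NPC1 in the membrane. The gene npc1 had 19.99, 57.5, 62.1, 75.9 and 68.6 RPM in KO1 to KO5, against 39.8, 43.9, 65.1, 42.4 and 30.6 RPM in WT1 to WT5. KO1 was the lowest of all libraries, while the other KO libraries lay above every WT library but WT3. The difference was 0.26 ± 0.30 (limma adjusted p = 0.709), 0.47 with TMM and 0.60 without KO1. For npc2 the averages were 51.9 ± 7.88 RPM in KO and 54.3 ± 10.6 in WT, a difference of -0.06 ± 0.20 with a 95% interval of -0.47 to 0.35.

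Prosaposin, the precursor of the saposins that present glycolipids to their hydrolases, is encoded by psap. It had 83.8, 64.1, 90.4, 95.3 and 97.999 RPM in KO1 to KO5, against 66.7, 82.8, 103, 57.3 and 67.3 RPM in WT1 to WT5. KO2 was low and WT3 high for their groups, as for ctsl. The difference of psap was 0.21 ± 0.20 with all libraries and 0.43 without WT3 and KO2 (limma adjusted p = 0.651 and 0.185). The model of psap overlaps that of slc29a3 in the name table, which averaged 57.4 ± 8.48 RPM in KO and 48.5 ± 8.18 in WT. The acid ceramidase gene asah1 averaged 4.16 ± 1.54 RPM in KO and 4.30 ± 1.52 in WT. Its model overlaps that of pcm1, which averaged 30.3 ± 6.67 RPM in KO and 28.3 ± 8.81 in WT. The gene npc1l1, of a sterol transporter of the cell surface, averaged 5.91 ± 4.32 RPM in KO and 6.44 ± 4.70 in WT.

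The last role holds genes whose loss causes neuronal ceroid lipofuscinosis, a storage disease, in humans. Of 6 members, 3 lay above and 3 below 0. The lysosomal membrane protein gene cln3 had 3.00, 12.3, 5.29, 4.90 and 3.16 RPM in KO1 to KO5, against 5.36, 6.13, 10.3, 12.4 and 6.32 RPM in WT1 to WT5. KO2 lay level with the highest WT library, and the other KO libraries lay below all of WT.

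The difference of cln3 was -0.52 ± 0.36, and -0.81 without KO2, with limma adjusted p-values of 0.503 and 0.195. The thioesterase gene ppt1 averaged 14.9 ± 1.83 RPM in KO and 16.5 ± 5.68 in WT, and the peptidase gene tpp1 9.03 ± 2.60 in KO and 10.8 ± 3.32 in WT. The genes cln6 and cln8, whose proteins sit in the endoplasmic reticulum and help export lysosomal enzymes, differed by 0.32 ± 0.46 and 0.21 ± 0.36.

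The 6 genes with a matching symbol that fell below the filter were atp6v1ba, ctsh, ctss, gba, man2b1 and neu1. The gene neu1 was at 0 in every library, and a count of 0 allows up to 0.306 to 0.660 RPM (3 reads) in the 9 libraries of the count tests. The glucocerebrosidase gene gba reached 0.369 RPM at most, in WT3, and the mannosidase gene man2b1 0.597 RPM, in KO4. The gene of cathepsin S, ctss, an enzyme of antigen-presenting cells, was at 13.1 RPM in KO5 and at 0.333 to 1.32 RPM in the other 9 libraries. These genes were not tested.

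Leaving out WT3 and KO2 together brought 3 members past the threshold, ids, ctsz and ctsl. Without both libraries the differences were 1.72 for ids, 0.90 for ctsz and 0.76 for ctsl, with limma adjusted p-values of 0.0149, 0.0124 and 0.0413. In that fit 2.83% of all genes were higher and 4.14% lower in KO. These 2 libraries were picked because earlier results of the same data had shown them apart from their groups in egg protein RNA. The 3 calls describe the remaining libraries and are no independent support. No pump gene passed the threshold in that fit. The median difference of the pump genes was -0.31 there, against -0.24 over all genes, and that of atp6v0a2 was -0.84 (limma adjusted p = 0.260).

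**Figure D4:**
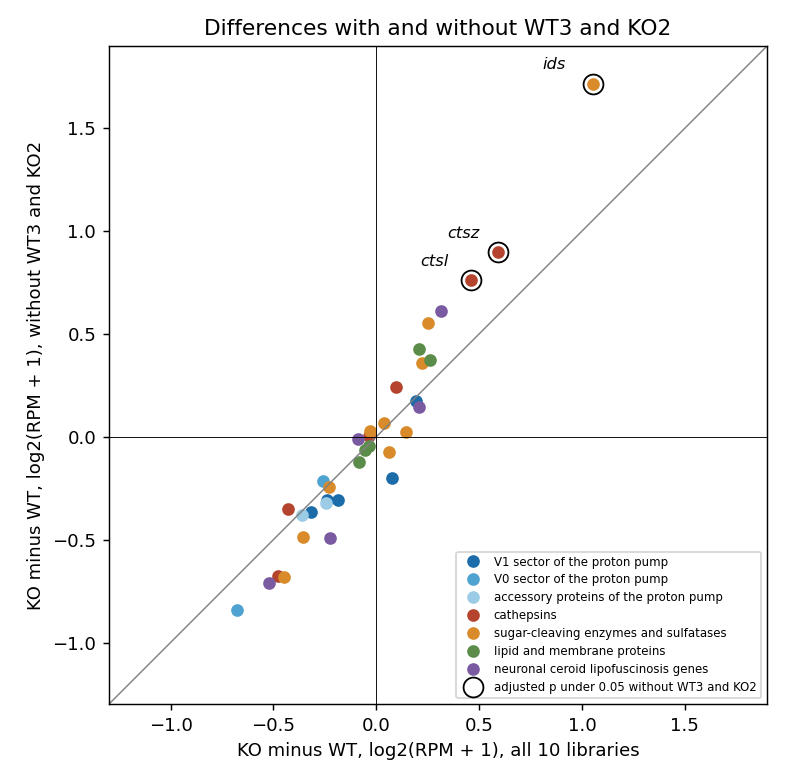
Difference KO minus WT of 35 members on the log2(RPM + 1) scale with all 10 libraries (x axis) and without WT3 and KO2 (y axis); the grey line marks equal values and circles mark limma adjusted p under 0.05 without these libraries. The circled genes are ids, ctsz and ctsl, at 1.72, 0.90 and 0.76 on the y axis.

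Libraries differed in how often they gave the extreme of their group. KO5 was the highest KO library for 15 of 36 members (41.7%), against 19.7% of all tested genes, and KO2 for 9, against 35.9% of all genes. Among WT libraries, WT2 was highest for 13 members (36.1%, against 19.4%) and WT3 for 12 (33.3%, against 24.5%). KO1 was lowest for 12 members (33.3%), close to its 37.3% of all genes. Macrophages are rich in lysosomes, and 10 of 27 listed leukocyte markers were matched, 8 of them tested. None was called, 6 of 8 lay below 0 with a median of -0.45 (-0.28 with TMM), and the 2 at an unadjusted limma p under 0.05, ncf1 at -1.15 and cd74 at -0.73, were both lower in KO. The summed level was 859 to 1908 RPM in KO and 570 to 1829 RPM in WT, most of it the lysozyme gene lyz, and the highest libraries were KO1 and WT3. The pan-leukocyte gene ptprc reached 5.64 RPM in KO and 9.45 RPM in WT, and cd74, of antigen-presenting cells, was at 35.0 to 49.0 RPM in KO and 39.2 to 178 RPM in WT, highest in WT2. Their part in the lysosomal values was not tested. Hepatocyte markers such as hpx and fgb were abundant in all libraries. The 7 tested summed to 19006 to 25217 RPM in KO and 7883 to 18815 RPM in WT, so that every KO library lay above every WT library. The largest part of this sum was hpx, at 10125 to 13967 RPM in KO and 3389 to 8746 RPM in WT. Of the 7, only hpx was called, higher in KO by 1.30 log2 units (limma adjusted p = 0.00454), and only its KO and WT ranges did not overlap. The differences of fga, fgb and fgg were 0.86, 0.92 and 0.76, and those of rbp4, hnf4a and serpinc1 were 0.03, 0.14 and 0.14. The part of the hepatocyte markers in the lysosomal values was not tested.

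Other genes of the pathway, taken from 5 lists, gave the same count of 0 in limma. Of 167 symbols 128 were matched and 122 tested, and limma called none of them. At an unadjusted p under 0.05 there were 18 (14.8%, against 16.4% of all genes), 16 lower and 2 higher in KO. The split by direction of all genes at this p is not given here, and 67.3% of all tested genes lay below 0. The groups did not overlap for 4 of them, lmbrd1, slc15a4, aga and ccdc115, which is 3.28% against 3.62% of all genes. edgeR called none of the 122, against 1.19% of all genes. At an unadjusted edgeR p under 0.05 there were 16 of 122, against 1800 of all 14984 genes. DESeq2 called 2, tpcn2 and ap3s1, against 3.26% of all genes. The median difference was -0.12 over all 122 and 0.07 with TMM. By list the medians were -0.16 over 27 membrane proteins, -0.03 over 35 further hydrolases and cofactors, -0.28 over 32 sorting genes, -0.28 over 10 pump assembly genes and -0.02 over 18 regulators. Over all tested genes the median was -0.19. With TMM the list medians were, in the same order, 0.06, 0.17, -0.09, -0.09 and 0.16, against -0.01 over all genes.

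Of the genes that the naming rule took from these lists, none passed the test. The lysosomal membrane protein gene lamp1 averaged 4.32 ± 1.54 RPM in KO and 6.31 ± 1.41 in WT (-0.49 ± 0.31). Its relative lamp2 averaged 51.3 ± 12.8 RPM in KO and 45.9 ± 8.29 in WT (0.14 ± 0.22). The receptor gene m6pr, which carries new enzymes from the Golgi to the lysosome, had a mean of 21.2 RPM in KO and 26.4 in WT (-0.33 ± 0.31). The gene tcirg1, an alternative V0 subunit known from osteoclasts, averaged 6.94 ± 1.62 RPM in KO and 5.53 ± 2.26 in WT. No gene matched tfeb, the main activator of lysosomal genes.

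The smallest p-values of these lists, picked after their values were seen, lay just outside the threshold. The adaptor subunit gene ap3s1, of vesicle transport to lysosomes, had 16.2, 26.2, 21.1, 16.1 and 28.0 RPM in KO1 to KO5, against 33.4, 46.0, 24.7, 57.7 and 58.7 RPM in WT1 to WT5. Only WT3 lay within the KO range. The difference was -0.97 ± 0.26 (limma adjusted p = 0.0531), and -0.76 with TMM (adjusted p = 0.127). The genes slc15a4, galns, ccdc115, mfsd8 and rragc had limma adjusted p-values of 0.0630, 0.0656, 0.0668, 0.0776 and 0.0969, all at lower mean levels in KO. On this scale, RPM as deposited, 83 of the 122 list genes (68.0%) lay below 0, against 67.3% of all tested genes. The share of all genes at such p-values is not given here, so these picks show no direction particular to the lists. The product of ccdc115 is an assembly factor of the proton pump, and the gene had 8.95 ± 2.82 RPM in KO and 17.9 ± 4.40 in WT. The lysosomal transporter gene mfsd8, also a ceroid lipofuscinosis gene, had 74.4 ± 22.1 RPM in KO and 134 ± 43.6 in WT.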

How the data were processed

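Liver RNA of 5 KO and 5 WT medaka libraries was analysed, grouped by the titles in the labels. The authors deposited RPM values for 25795 genes from Lasy-Seq 3' libraries, per the labels' protocols; BWA 0.7.17-r1188 and Salmon 1.4.0 are listed, without their roles, per the submitters' processing notes, and the build of the genome is not given in the sources used here. Symbols came from RefSeq (assembly ASM223467v1), which matched all 25795 IDs; 6926 of the 14984 tested genes have only a LOC number and cannot be reached by symbol. In all 10 libraries 100.0% of values were whole multiples of 1 read (within 1e-06 of a read). A unit check did not accept the reads of KO5, where 1 read is worth 0.0989 RPM, near a rounding step of 0.1. Its values were nonetheless whole multiples of 1 read as in the other libraries, and its total of 10112313 reads rests on that step. Leaving KO5 out of the count tests was therefore a choice that its values do not require. WT5, at 0.102 RPM a read, was kept, and the count tests used 9 libraries. Replicate libraries differed by 14.6 to 140.1 times their counting error (chi-square over degrees of freedom), so none was a duplicate.

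The fit was limma 3.58.1 (R 4.3.3) with a variance trend on log2(RPM + 1), two-sided, Benjamini-Hochberg adjusted over all 14984 genes; such differences understate changes of genes at low RPM. edgeR 4.0.16 and DESeq2 1.42.0 ran on the recovered reads. Named members were the 3 of highest mean RPM and the 1 of smallest p in each role, and any that passed; other members were named after their values were seen. The values of 1 member, which all counts and sums include, are not reported here. Members and lists were chosen with earlier results of these data known. The limma step was also run on simulated counts, and the outcome is not reported here. These counts held no library set apart from its group, as KO2 and WT3 were, so the run cannot speak to such libraries. Promoter and protein sequences were not used here. Gene models of 8 members, among them asah1, atp6v0a2, ctso, gns, hexb, ids and psap, overlap another gene. The strand setting of the authors' counting is not given, so reads of these members may be shared with the overlapping genes.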

Additional observations from a re-analysis of the deposited data

Results flagged for a closer look

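In 64 groups of 5 libraries, for the genes named by rule and the summed roles, 4 libraries stood far from the rest of their group, with a gap to the nearest library of over 0.71 of the group's range. Chance flags about 1 in 20 groups, so 4 flags in 64 groups is near the number that chance alone gives. KO2 stood high for atp6v1a, at 33.46 RPM, with a gap of 0.929 of the KO range, and for cln3, at 12.33 RPM, with a gap of 0.755. KO4 stood low for atp6v0b, at 28.67 RPM (0.753). WT3 stood high for gusb, at 38.91 RPM (0.722).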

How the results depend on the processing

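Members were called in 2 of the alternatives run: 1 was higher without KO2, and 3 were higher without WT3 and KO2. All others gave 0 higher and 0 lower, including the replicate block, TMM, median-of-ratios scaling, rescaling without the 20 most abundant genes, pseudocounts of 0.5 and 5, filters, robust variances, the 33 intended symbols, edgeR and DESeq2. Leaving out 1 library gave 0 to 1 higher and 0 lower. Of the 5 other lists, leaving out 1 library gave 0 to 1 higher and 0 to 4 lower; without WT3 and KO2, 2 were higher and 8 lower; DESeq2 gave 1 and 1, a 5 RPM filter 2 lower and robust variances 1 lower. Without WT3 the calls were slc15a4, mfsd8, manba and ap3s1, lower, and lyz, higher; without KO2 they were slc15a4, mfsd8, galns and ap3s1, lower.

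Over all genes, 175 were higher and 252 lower. TMM gave 313 and 132, median-of-ratios scaling 296 and 143, no filter 73 and 103, edgeR 131 and 47, DESeq2 310 and 179, and leaving out WT3 and KO2 424 and 621. Leaving out 1 library gave 94 to 365 higher and 104 to 479 lower, the highest counts without WT3. The causes were not tested. Same-numbered KO and WT libraries did not deviate together (correlations of -0.08 to 0.001), which gave no sign of a pairing by number but cannot exclude shared handling. With the replicate block 145 were higher and 190 lower. TMM moved the sign of 7 of the 36 members' uncalled differences. Low read counts limit ids, gaa and the other members under 10 RPM.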
